A study of Rattus norvegicus with 6 samples.

Results

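The proteasome is the barrel-shaped protease that degrades proteins tagged with ubiquitin. Its genes were chosen by name: every rat gene symbol that begins with Psm, a letter from a to g and a number, and that the transcript accession of an array probe maps to. This gave 46 genes on 52 probes, out of 26912 genes and other transcripts on the array, and 45 of the 46 were bright enough to be tested. The family was taken up because it was higher after treatment in these same arrays, so the treated and control values of its members are a description here, with no test, and nothing is supported by them.

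The data are 6 one-colour Agilent expression arrays of liver from male Wistar Hannover rats, 1 rat per array. In the control group 3 rats received the vehicle, corn oil, by gavage for 7 days, and in the treated group 3 rats were given PCN, pregnenolone-16α-carbonitrile, for the same time at a daily dose of 100 mg/kg. This compound is a man-made steroid and an agonist of the pregnane X receptor of rodents, a liver sensor of foreign compounds. The rats were 4 weeks old when purchased and spent 1 week in quarantine, and whole liver was used, so in these bulk samples fewer cells of a type and less RNA per cell cannot be told apart.

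In the proteasome, a core particle of alpha and beta rings holds the protein-cutting sites inside the barrel. A regulatory particle on its end binds ubiquitin chains, removes them, and unfolds the substrate with a ring of ATPases. Interferon-inducible catalytic subunits can replace the standard ones, which gives the immunoproteasome, a form known for making peptides for antigen presentation. In mammalian cells the transcription factor NRF1, the product of Nfe2l1, is known to raise the transcription of proteasome subunit genes together when proteasome capacity falls short.

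Values are log2 signals relative to the 75th percentile of the array, and differences are PCN minus control with a standard error (SE) from 3 arrays per group. The 75th percentile lay between 488 and 758 intensity units, 61.6% to 68.9% of spots lay well above background, and 0 were saturated. Hepatocyte identity was clear, with 10 of 10 hepatocyte markers well above background on all arrays. Each group was hybridised on a slide of its own, and the effects of slide and treatment cannot be told apart. Cyp3a23-3a1, the classical target of the pregnane X receptor, rose by 4.31 ± 0.19 (limma, adjusted p = 1.69e-04), and Nr1i2, which encodes the receptor, gave −0.10 ± 0.11 (adjusted p = 0.561). Past the limma threshold (adjusted p under 0.05) were 3263 genes, 19.9% of those tested, and 78.1% of these were lower with PCN. That share was 65.9% after quantile normalization, 41.0% when arrays were scaled to their median, 96.2% when scaled to spike-in RNA and 64.4% after normexp background correction.

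Most standard subunits of the core and of the regulatory particle within the naming rule were higher with PCN by a similar, small amount. Over the 30 tested genes of this kind (core alpha, core beta, ATPases, and the other subunits of the base and lid) the median log2 difference was 0.52, against −0.06 over all 16389 tested genes. In 28 of the 30 all 3 PCN arrays lay above all 3 control arrays, which held for 14.7% of all tested genes. Adrm1, a subunit of the regulatory particle outside the naming rule, gave −0.01 ± 0.12. Sem1, from the list of partners below, gave 0.18 ± 0.10, and the groups overlapped for both. Past the threshold were 23 of the 30, all higher, and 25 of the 45 tested family members, where 4.37% of all tested genes were called higher. No member was called lower (1 was in the fit without PCN replicate 2), against 15.5% of all tested genes. Of the 45 differences 41 were above 0, against 42.4%. Because the family was picked for this, the counts only describe it. The interquartile range of the 30 differences was 0.16 on the log2 scale, against 0.54 over all tested genes. It was 0.15 for the COP9 signalosome, 0.17 for eIF3 and 0.23 for TRiC, complexes described below. A narrow range is thus not particular to the proteasome. The number of called members was 14 without control replicate 1, 9 without control replicate 3, 13 without PCN replicate 3, 33 when arrays were scaled to their median and 1 when scaled to spike-in RNA. The spike-in scaling moved the median of all genes to −0.30 and that of the 30 subunits to 0.28.

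**Figure D1:**
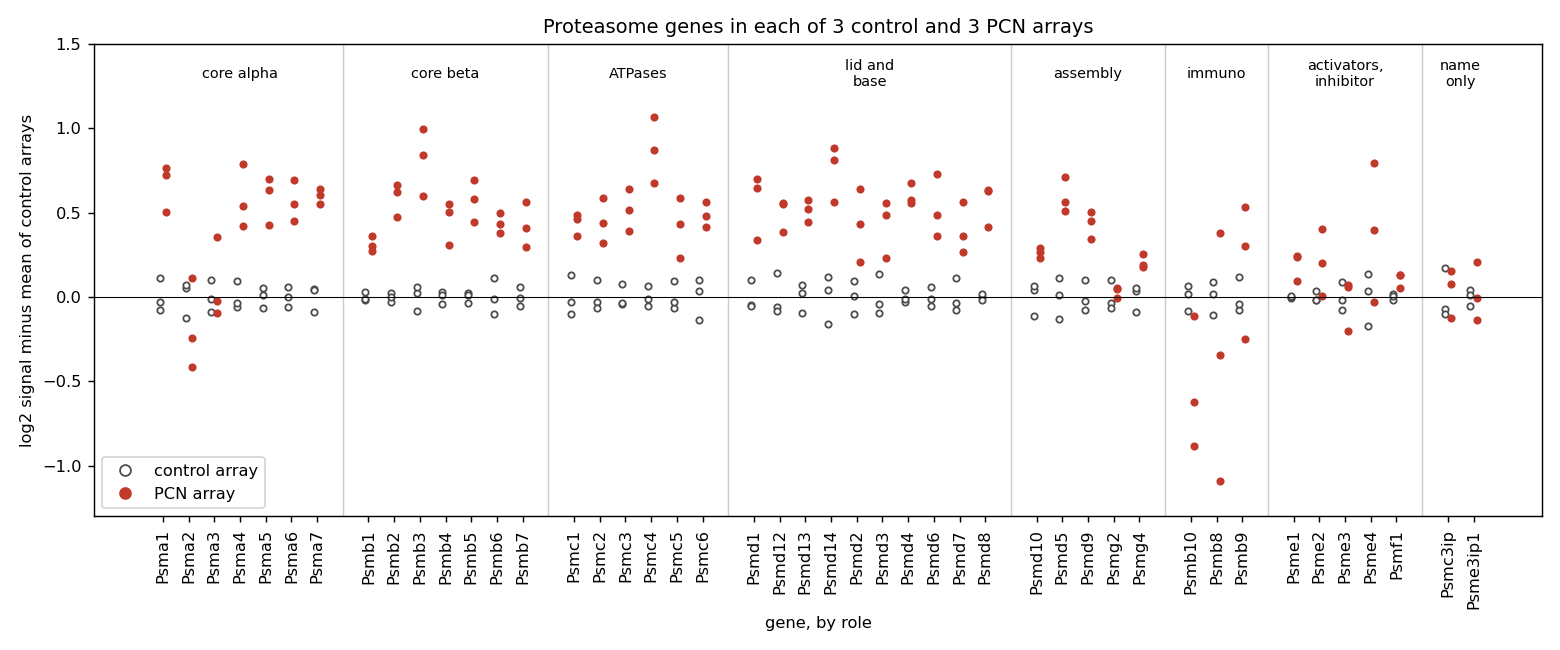
Log2 signal of each tested gene of the family minus its mean over the control arrays (y axis), for 3 control arrays (open circles) and 3 PCN arrays (filled circles), with genes grouped by role along the x axis. PCN arrays lie above the control arrays for 28 of the 30 core, ATPase, lid and base genes, lie on both sides of 0 for Psma2, Psma3, Psmb8 and Psmb9, and all lie below 0 for Psmb10.

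The alpha subunits form the outer rings of the core, which gate entry to it. Of 8 alpha genes 7 were tested, with a median difference of 0.58. Psma1 measured 2.83, 2.69 and 2.64 in control rats 1 to 3 and 3.23, 3.49 and 3.45 in rats 1 to 3 given PCN, a difference of 0.67 ± 0.12 SE (1.59-fold). Psma7 measured 4.12, 4.12 and 3.99 in controls and 4.63, 4.68 and 4.72 with PCN, a difference of 0.60 ± 0.10. For both genes the lowest PCN array stood above the highest control array. Psma5, printed as 10 spots on each array, was higher by 0.59 ± 0.11. Its spots differed within an array by an SD of 0.01 to 0.04, less than the spread between PCN arrays (SD 0.14).

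Psma2 and Psma3 did not share the shift. Psma2 measured 2.22, 2.23 and 2.04 in controls and 2.27, 1.92 and 1.75 with PCN, a difference of −0.18 ± 0.15. Psma3 measured 1.57, 1.38 and 1.46 in controls and 1.45, 1.82 and 1.38 with PCN, a difference of 0.08 ± 0.14. The groups overlapped for both, and each gene rests on a single probe. Psma8, the testis form of an alpha subunit, has 3 probes, none of them well above background on all arrays of a group, and it was not tested.

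The beta subunits form the inner rings, which carry the cutting sites. All 7 standard beta genes were measured, and for each the PCN arrays lay above the control arrays. Psmb3, a structural subunit, measured 3.67, 3.70 and 3.56 in controls and 4.24, 4.64 and 4.49 with PCN, a difference of 0.81 ± 0.13 (1.75-fold). Psmb2 was higher by 0.59 ± 0.10. Psmb1 had the smallest difference, at 0.31 ± 0.09, with 2.65, 2.70 and 2.66 in controls and 2.94, 2.97 and 3.03 with PCN.

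The cutting sites themselves are on Psmb6 (caspase-like), Psmb7 (trypsin-like) and Psmb5 (chymotrypsin-like). Psmb5 measured 4.17, 4.11 and 4.16 in controls and 4.59, 4.73 and 4.84 with PCN, a difference of 0.57 ± 0.10. Psmb6 measured 2.18, 2.39 and 2.27 in controls and 2.66, 2.78 and 2.71 with PCN, a difference of 0.44 ± 0.10. Psmb7 measured 2.26, 2.37 and 2.31 in controls and 2.72, 2.61 and 2.88 with PCN, a difference of 0.42 ± 0.11. None of these 3 genes had an overlap between the groups.

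Their interferon-inducible replacements, Psmb9, Psmb10 and Psmb8 in the same order, behaved differently from array to array. Psmb8 measured 1.13, 1.00 and 1.20 in controls and 1.49, 0.77 and 0.02 with PCN, a difference of −0.35 ± 0.34. Psmb9 measured 1.29, 1.49 and 1.33 in controls and 1.90, 1.67 and 1.12 with PCN, a difference of 0.19 ± 0.20. The PCN arrays of both genes lay on both sides of the controls. Psmb10 measured 2.87, 2.77 and 2.92 in controls and 2.23, 2.74 and 1.97 with PCN, a difference of −0.54 ± 0.20, and was the only tested gene of the family for which all PCN arrays lay below all control arrays (26.7% of all tested genes did so). The SD between PCN arrays was 0.73 for Psmb8, 0.40 for Psmb9 and 0.39 for Psmb10, against 0.12, 0.06 and 0.13 for Psmb5, Psmb6 and Psmb7.

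**Figure D2:**
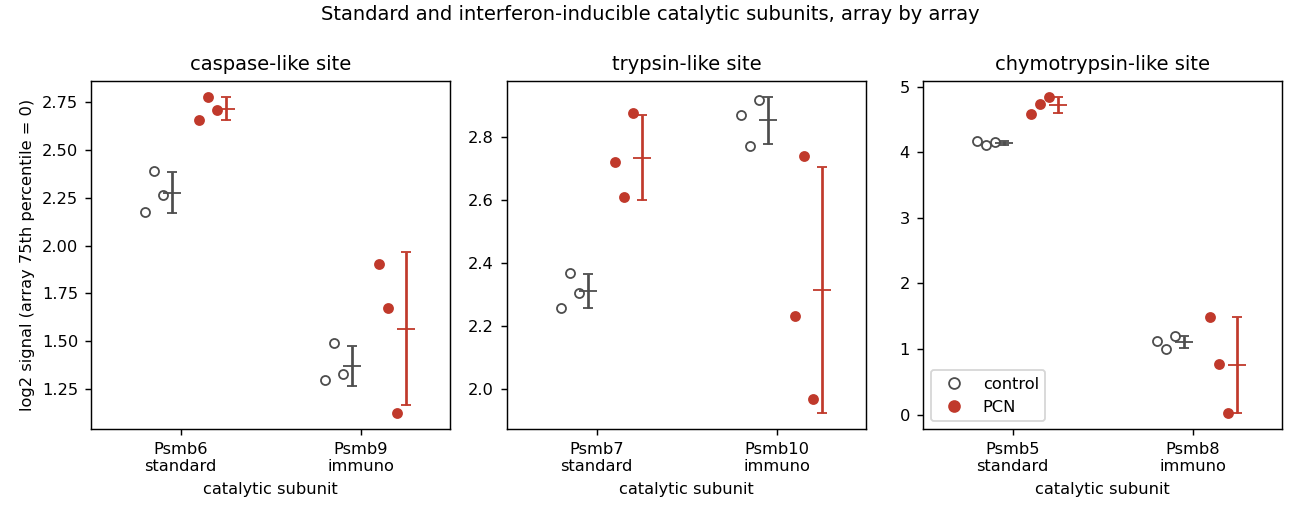
Log2 signal (array 75th percentile at 0) of the standard and immunoproteasome subunit of each cutting site on 3 control arrays (open circles) and 3 PCN arrays (filled circles), with the mean and SD of each group beside the points. The y axis differs between panels and levels of different probes cannot be compared. The PCN arrays sit above the controls for Psmb6, Psmb7 and Psmb5 and spread widely for Psmb9, Psmb10 and Psmb8.

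The difference between the standard subunit and its replacement varied from array to array, and on PCN array 1 it lay within the control range for Psmb5 against Psmb8 and below it for Psmb6 against Psmb9. Relative to the control mean, the log2 difference Psmb5 minus Psmb8 was 0.07, 0.93 and 1.78 on PCN arrays 1 to 3, and Psmb7 minus Psmb10 was 1.03, 0.41 and 1.45. Psmb6 minus Psmb9 was −0.15, 0.20 and 0.68. PCN array 3 had the largest value of each of these differences.

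The activators that cap the core in place of the regulatory particle, and its inhibitor, stayed nearer to the controls. Past the threshold were 0 of 5, against 19.9% of all tested genes in either direction, so this count alone does not set them apart. Psme1 and Psme2, interferon-inducible partners that form 1 activator, differed by 0.19 ± 0.09 and 0.20 ± 0.12. Psme1 measured 4.96, 4.97 and 4.98 in controls and 5.21, 5.21 and 5.06 with PCN, without overlap, whereas Psme2 overlapped. The nuclear activator Psme3 gave −0.02 ± 0.12 and the inhibitor Psmf1 0.10 ± 0.09. Psme4, a nuclear activator, measured 2.39, 2.49 and 2.18 in controls and 2.33, 3.15 and 2.75 with PCN, a difference of 0.39 ± 0.22. Its other, dimmer probe gave 0.49 ± 0.11, with 0.37, 0.23 and 0.29 in controls and 0.67, 0.93 and 0.76 with PCN, so the probes of Psme4 differ in whether the groups overlap.

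PCN array 3 was the lowest PCN array for all 5 of Psmb8, Psmb9, Psmb10, Psme1 and Psme2, while PCN array 1 was the lowest for 24 of the 30 standard subunits. Over all tested genes PCN array 3 was the lowest in 28.2% and PCN array 1 in 26.5%. All 10 tested markers of Kupffer cells, the resident macrophages of liver, were also lowest among PCN arrays on PCN array 3, as were 3 of 4 T cell markers and 12 of 20 genes of antigen processing and interferon response. These 10 markers had a median difference of −0.38, 0 passed the threshold, and their summed level ran from 66.3 to 76.8 on control arrays and from 47.7 to 68.8 on PCN arrays, in multiples of the array's 75th percentile. No tested Kupffer cell marker was absent in either group. Of 4 tested T cell markers Cd3d fell, by 0.66 ± 0.12 (limma, adjusted p = 0.0108), and Lck was called lower as well (adjusted p = 0.0203). Lck entered the test only through the controls, since just 1 of the 3 rats given PCN had it well above background, so the size of its difference is not known. It gave 0.058 after normexp background correction and lost its call in 4 of the 6 fits without 1 array, all but those without replicate 1 of either group (adjusted p = 0.0569 to 0.0726). The summed level of the 4 T cell markers ran from 0.57 to 0.72 in controls and from 0.40 to 0.51 with PCN. Of 4 tested neutrophil markers, all with differences below 0 (median −0.59), Fcnb fell, by 0.66 ± 0.18 (adjusted p = 0.0433, chosen with its value known). It lost the call in 5 of the 6 fits without 1 array, all but that without PCN replicate 2 (0.0723 to 0.128). Nor was it called after quantile normalization, median scaling or cyclic loess, on the deposited values, or with no filter on dim probes (0.0529 to 0.104). The part of these cells in the immunoproteasome values was not tested. Over all tested genes 15.5% were called lower, the background for the T cell and neutrophil calls. Of 20 tested genes of antigen processing and interferon response 0 passed the limma threshold (2 at an unadjusted p under 0.05, as were 34.5% of all tested genes), with a median difference of 0.01. Oas1a, an interferon-induced antiviral enzyme, gave 2.92 ± 0.86 and the interferon regulatory factor Irf1 −0.72 ± 0.23 (adjusted p = 0.0565 and 0.0711). Oas1a passed the threshold in 5 alternatives (adjusted p = 0.0112 to 0.140 over all of them) and Irf1 in 4 (0.0122 to 0.193). Tap1, a peptide transporter whose gene lies between Psmb8 and Psmb9 in the rat genome, gave −0.01 ± 0.24 (adjusted p = 0.977).

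The 250 bases before the annotated start of 4 genes are shown as examples of windows that hold a match, and were chosen for it. In Psmb5 and Psmb6 capitals mark TGACNNNGC, the core of the antioxidant response element bound by NRF1 and NRF2, and in Psmb10 and Psme2 they mark GAAA, any 2 bases and GAAA again, the core of the interferon-stimulated response element. The sequences are from RefSeq, build GRCr8: Psmb5 at chr15:32047380-32047629 (minus strand), Psmb6 at chr10:55737638-55737887 (plus strand), Psmb10 at chr19:50743293-50743542 (minus strand) and Psme2 at chr15:33052752-33053001 (minus strand).
Psmb5: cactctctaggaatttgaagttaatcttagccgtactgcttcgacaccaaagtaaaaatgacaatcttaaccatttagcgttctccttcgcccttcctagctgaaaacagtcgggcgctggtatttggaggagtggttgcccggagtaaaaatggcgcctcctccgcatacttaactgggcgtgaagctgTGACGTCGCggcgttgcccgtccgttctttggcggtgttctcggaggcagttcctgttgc
Psmb6: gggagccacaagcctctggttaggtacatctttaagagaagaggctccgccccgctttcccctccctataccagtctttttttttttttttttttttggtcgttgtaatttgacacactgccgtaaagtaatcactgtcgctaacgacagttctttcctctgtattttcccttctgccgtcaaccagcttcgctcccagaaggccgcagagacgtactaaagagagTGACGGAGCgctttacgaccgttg
Psmb10: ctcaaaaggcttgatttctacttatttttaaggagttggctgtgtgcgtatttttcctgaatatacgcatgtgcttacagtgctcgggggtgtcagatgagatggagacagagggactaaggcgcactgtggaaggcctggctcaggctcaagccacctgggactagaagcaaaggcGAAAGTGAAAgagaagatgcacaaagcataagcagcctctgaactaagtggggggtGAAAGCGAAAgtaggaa
Psme2: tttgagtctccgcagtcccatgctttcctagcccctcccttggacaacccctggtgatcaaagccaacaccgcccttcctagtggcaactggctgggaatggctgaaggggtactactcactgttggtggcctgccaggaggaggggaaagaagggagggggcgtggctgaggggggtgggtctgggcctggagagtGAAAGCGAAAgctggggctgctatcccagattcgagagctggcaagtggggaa

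The matches begin at position −60 in Psmb5, −24 in Psmb6, −73 and −17 in Psmb10 and −53 in Psme2, counted from the annotated start. Motifs were searched on both strands in windows of 300 bases (250 before and 50 after the start), and overlapping matches of different motifs each counted. Of 44 subunit and factor genes with a probe, 40 had a window. TGACNNNGC was present in 6 of 27 standard subunit windows (22.2%), against 12.2% of all 27457 windows. Those 6 genes were Psma3, Psmb2, Psmb5, Psmb6, Psmd1 and Psmd3, so Psma3, with a difference near 0, holds a match too. The interferon-stimulated core was present in 3 of the 8 windows of immunoproteasome, activator and inhibitor genes (37.5%), in 3 of the 27 standard subunit windows (11.1%; Psma4, Psmb3 and Psmd7) and in 3.77% of all windows. Psmb7 held no TGACNNNGC, and Psmb9 no interferon-stimulated core. The ETS-type letters CGGAAG were in 17 of 27 standard windows (63%) and 17.4% of all. The GC box GGGCGG was in 20 of 27 (74.1%) and 34.9%, and the box CCAAT in 14 of 27 (51.9%) and 37.7%. Among the 8 immunoproteasome, activator and inhibitor windows, 5 held GGGCGG (62.5%), 4 held CCAAT (50%) and 2 held CGGAAG (25%). Of 5 assembly factor windows 4 held GGGCGG (80%), 2 held CCAAT (40%) and 0 held CGGAAG. The GC box and CCAAT were thus not particular to the standard subunits, and differences between these small groups were not tested. Exact direct repeats of AGGTCA spaced by 4 or by 3 bases, a type bound by the pregnane X receptor, were in 0 of 40 windows. They were in 1 and 5 of all 27457, so rare that the 0 of 40 says nothing about these genes. Variants of these letters were not searched. These matches describe letters in a short window and say nothing about binding.

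In the regulatory particle, 6 ATPases form the ring that unfolds the substrate. All 6 were higher on every PCN array than on any control array, with a median difference of 0.47. Psmc4 had the largest difference of the family, 0.87 ± 0.13 (1.83-fold), with 1.42, 1.34 and 1.30 in controls and 2.03, 2.42 and 2.23 with PCN. Psmc3 differed by 0.52 ± 0.11 and Psmc6 by 0.49 ± 0.11. The smallest difference was that of Psmc5, 0.42 ± 0.12, with 5.51, 5.35 and 5.38 in controls and 5.64, 6.00 and 5.85 with PCN.

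Among the other subunits of the base and the lid are those that recognise ubiquitin and cut it off. All 10 tested genes of this group were higher on every PCN array than on any control array, with differences from 0.40 to 0.75. Psmd14, the enzyme that removes the ubiquitin chain, measured −0.09, −0.16 and −0.37 in controls and 0.36, 0.68 and 0.60 with PCN, a difference of 0.75 ± 0.13 (1.68-fold). Psmd4, a ubiquitin receptor, measured 3.32, 3.24 and 3.26 in controls and 3.83, 3.85 and 3.95 with PCN, a difference of 0.60 ± 0.09. The scaffold subunit Psmd1 differed by 0.56 ± 0.13. Psmd7, the partner of Psmd14 in the lid, had the smallest difference, 0.40 ± 0.12, with 2.77, 2.63 and 2.58 in controls and 3.02, 2.93 and 3.22 with PCN. No probe on the array was named Psmd11 through its accession, nor Psmb11, Psmg1 or Psmg3.

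Assembly factors were mixed. Psmd5, a chaperone of the base, measured −0.38, −0.63 and −0.48 in controls and 0.02, 0.07 and 0.21 with PCN, a difference of 0.60 ± 0.11. Psmd9 and Psmd10, which act at the same step, differed by 0.43 ± 0.10 and 0.26 ± 0.10, and the other probe of Psmd9 by 0.50 ± 0.15. The chaperones of the core alpha ring differed less. Psmg2 gave 0.03 ± 0.10 with overlapping groups, and Psmg4 gave 0.21 ± 0.10 with 1.63, 1.76 and 1.77 in controls and 1.91, 1.97 and 1.90 with PCN. Pomp, the chaperone that completes the core and is outside the naming rule, rose by 0.42 ± 0.10 (limma, adjusted p = 0.0281).

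Matching symbols also name Psmc3ip, a meiotic recombination factor, and Psme3ip1, a protein that binds Psme3, which are not proteasome subunits. Their differences were 0.04 ± 0.13 and 0.02 ± 0.12, and the groups overlapped for both.

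Genes outside the family were not used to choose it and are tested over all 16389 genes. Their lists were chosen with earlier results of these data known, so their calls are not independent support. Nfe2l1, which encodes NRF1, rose by 0.86 ± 0.11 (1.81-fold; limma, adjusted p = 3.73e-03). It measured −0.39, −0.56 and −0.37 in controls and 0.51, 0.30 and 0.43 with PCN, and it was called under each alternative run (adjusted p = 2.06e-03 to 0.0178). Nfe2l2, which encodes the related factor NRF2, measured 2.16, 1.82 and 2.38 in controls and 2.02, 1.83 and 1.81 with PCN, a difference of −0.23 ± 0.16 (adjusted p = 0.353). Sqstm1, a ubiquitin-binding autophagy receptor, rose by 0.86 ± 0.14 (adjusted p = 9.35e-03), from 4.03, 3.74 and 3.74 to 4.47, 4.82 and 4.80. These were 2 rises and 0 falls among 8 tested regulators of NRF1 and NRF2. Over all tested genes 4.37% were called higher and 15.5% lower. The median of these regulators was 0.15. That median was 0.07 without control replicate 3, 0.27 without PCN replicate 3, −0.09 with spike-in scaling and 0.36 with median scaling.

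**Figure D3:**
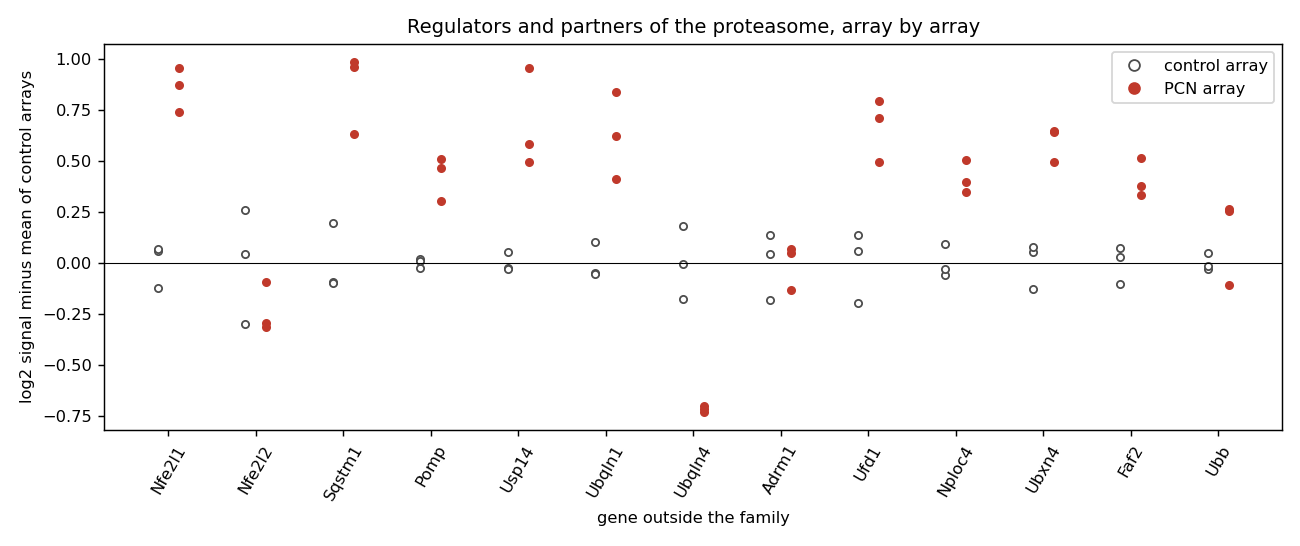
Log2 signal minus the mean of the control arrays (y axis) for genes outside the naming rule (x axis), on 3 control arrays (open circles) and 3 PCN arrays (filled circles). The PCN arrays of Nfe2l1, Sqstm1 and Pomp lie above their controls, those of Ubqln4 below, and those of Nfe2l2, Adrm1 and Ubb overlap with theirs.

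Proteins that work on the proteasome moved in both directions. Of 12 tested partners 4 rose and 1 fell, against 4.37% called higher and 15.5% called lower over all tested genes. The median of the 12 was 0.43 (0.19 with spike-in scaling and 0.63 with median scaling, where 10 were called). Without control replicate 3 a single partner was called. Among the rises were Usp14, a deubiquitinase of the regulatory particle (by 0.68 ± 0.14, adjusted p = 0.0185), the ubiquitin shuttle Ubqln1 (0.62 ± 0.13, adjusted p = 0.0214), and Pomp. Ubqln4, another ubiquitin shuttle, fell by 0.72 ± 0.12 (adjusted p = 8.64e-03), from −1.87, −1.52 and −1.70 to −2.41, −2.43 and −2.40. Adrm1, a ubiquitin receptor that is itself a subunit of the regulatory particle, gave −0.01 ± 0.12 (adjusted p = 0.980), with overlapping groups. The call for Usp14 ended without any 1 control array (adjusted p = 0.0556 to 0.0626), that for Ubqln1 without control replicate 2 or 3 or PCN replicate 3 (0.0577 to 0.0760), and that for Pomp in 5 of the 6 fits without 1 array, all but that without PCN replicate 1 (0.0621 to 0.0878). With no filter on dim probes these calls ended too (0.0557, 0.0636 and 0.0936 in the same order). Pomp was not called after cyclic loess either (0.0540).

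Of 13 tested genes that carry proteins from the endoplasmic reticulum to the proteasome 4 rose and 0 fell (4.37% and 15.5% of all tested genes). These were Ubxn4 (0.59 ± 0.11), Ufd1 (0.67 ± 0.13), Nploc4 (0.42 ± 0.10) and Faf2 (0.41 ± 0.11), with adjusted p = 0.0118, 0.0170, 0.0313 and 0.0379, and the list had a median of 0.17. That median was 0.10 without control replicate 2, 0.28 without PCN replicate 2, −0.07 with spike-in scaling and 0.37 with median scaling. Herpud1, a membrane protein of this pathway chosen with its value known, had the largest difference of the list, −0.73 ± 0.22 with all PCN arrays below all controls (adjusted p = 0.0618, and 0.0103 to 0.146 over the alternatives, 2 of which called it). Ufd1 and Nploc4 are partners of the unfolding ATPase Vcp, and Ubxn4 and Faf2 recruit it to the membrane. The call for Ubxn4 stood in each fit without 1 array, that for Ufd1 ended without control replicate 1 or 3 or PCN replicate 3 (adjusted p = 0.0516 to 0.0531), and those for Nploc4 and Faf2 in all 6 (0.0560 to 0.104 and 0.0644 to 0.118). Faf2 was not called after quantile normalization or cyclic loess either (0.0525 and 0.0586). Ubiquitin itself and the enzymes that activate it and its relatives had 0 of 8 genes past the limma threshold. At an unadjusted p under 0.05 were 2 of the 8, against 34.5% of all tested genes. The ubiquitin gene Ubb gave 0.14 ± 0.13 (adjusted p = 0.506). The lowest p in that list were those of Nae1 (0.47 ± 0.15) and Uba3 (0.39 ± 0.14), which act on the ubiquitin relative NEDD8 (adjusted p = 0.0728 and 0.0949).

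Targets of NRF2 rose in 5 of 17 tested genes and 1 was called lower, against 4.37% and 15.5% of all tested genes. The median of the 17 was 0.42 (0.64 without PCN replicate 1, 0.18 with spike-in scaling). Gsr rose by 1.29 ± 0.21, Tkt by 1.14 ± 0.21, Txn1 by 0.70 ± 0.13 and Nqo1 by 0.96 ± 0.23 (adjusted p = 8.93e-03, 0.0118, 0.0145 and 0.0277). The other rise was Prdx1, by 0.45 ± 0.12, and the gene called lower was Gclm (adjusted p = 0.0381 and 0.0457), both chosen with their values known. Gclm entered the test only through the controls, with 1 of 3 rats given PCN well above background, so the size of its difference is not known, and it gave −0.26 after normexp. Neither was called after quantile normalization or cyclic loess (0.0557 to 0.0854). Prdx1 and Gclm each lost the call in 5 of the 6 fits without 1 array, all but that without control replicate 3 for Prdx1 and PCN replicate 2 for Gclm (adjusted p = 0.0821 to 0.112 and 0.0916 to 0.134). Txn1 lost the call when control replicate 3 was left out (adjusted p = 0.0551), and Nqo1 in 4 of the 6 fits without 1 array, all but those without replicate 3 of either group (0.0771 to 0.0855). PCN array 1 was the lowest PCN array for 11 of the 17, as it was for most standard proteasome subunits. Among 9 tested heat shock genes Hsp90aa1 and Hspb1 rose, by 0.57 ± 0.11 and 1.75 ± 0.36 (adjusted p = 0.0131 and 0.0175), against 4.37% of all tested genes called higher. The median of the 9 was 0.19, and 5 of the 9 differences were above 0. Hsp90aa1 lost the call without control replicate 3 (adjusted p = 0.0556) and after normexp (0.0603). Hspb1 lost it without control replicate 2 or 3 (0.0573 and 0.0618).

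Other large complexes of liver cells were counted the same way, against 4.37% of all tested genes called higher and 15.5% lower. The COP9 signalosome, which is related in sequence to the proteasome lid, had 1 of 9 genes called higher and a median of 0.13, the member being Cops5, the relative of Psmd14 (0.47 ± 0.12, limma adjusted p = 0.0343). The translation factor eIF3, related to both, had 0 of 11 called by limma and a median of 0.09. At an unadjusted p under 0.05 were 2 of the 11, against 34.5% of all tested genes. Eif3h gave −0.33 ± 0.11 and Eif3j 0.35 ± 0.14 (adjusted p = 0.0744 and 0.117). The chaperonin TRiC had 1 of 8 called higher, Cct6a (0.48 ± 0.13, adjusted p = 0.0393), and a median of 0.23. Cops5 and Cct6a each lost the call in 5 of the 6 fits without 1 array, all but that without PCN replicate 1 (adjusted p = 0.0700 to 0.105 and 0.0696 to 0.126), and also after quantile normalization (0.0818 and 0.0613), cyclic loess (0.0632 and 0.0760) and with no filter on dim probes (0.0996 and 0.107). The difference between the proteasome and these complexes was not tested. Under spike-in scaling the medians of the 3 complexes fell below 0, at −0.11, −0.14 and −0.01 in the same order. Under median scaling they were 0.34, 0.30 and 0.44, with 5 of 9, 4 of 11 and 6 of 8 genes called, so these counts depend on the scaling.

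**Figure D4:**
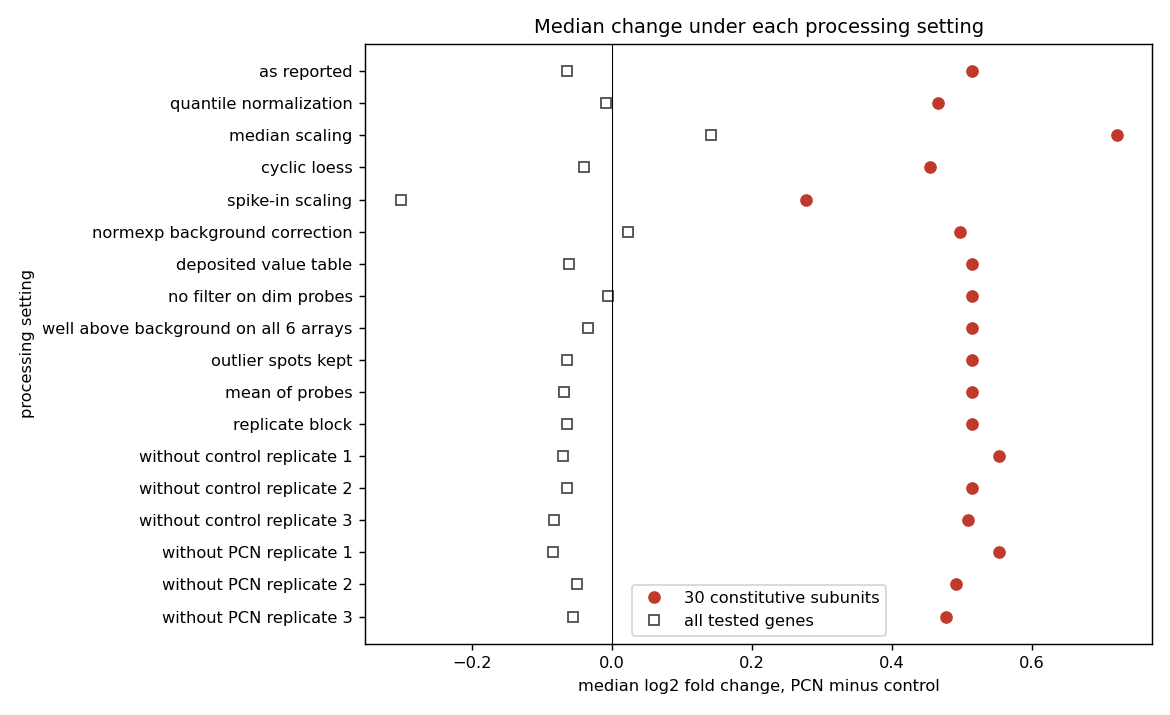
Median log2 fold change, PCN minus control (x axis), of the 30 standard subunits of core, ATPases, lid and base (filled circles) and of all tested genes (open squares) under each processing setting (y axis). The subunit median lies above that of all genes in each setting, from 0.28 with spike-in scaling to 0.72 with median scaling. Median and spike-in scaling shift all genes of an array by the same amount. The gap between the medians, 0.58, therefore cannot change with them and is not tested by them. In the other settings the gap ran from 0.47 after normexp background correction to 0.64 without PCN replicate 1. Because the family was picked for being higher, the gap only describes it.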

How the data were processed

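Liver RNA (100 ng per rat) was labelled with Cy3, per the labels' protocols. Per the file headers, Feature Extraction 10.7.3.1 (Agilent) gave the deposited intensity of each spot; the processed signal is background-subtracted within an array. A deposited table holds a linear ratio, made by the authors. Set against the scanner values it is the processed signal over the array's 75th percentile (correlation 0.99998 over spots at 0.1 or more, column medians 0.10 to 0.12), uncentred. The sources used here do not give the authors' test for changes.

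Log2 processed signal minus the array's 75th percentile was computed in R 4.3.3, leaving out control and outlier spots and averaging the spots of a probe. Probes well above background (at least 50% of their spots) on all 3 arrays of a group were tested (18329 of 30367). Names came through transcript accessions from RefSeq GRCr8 (18004 probes matched 1 symbol), and the brightest probe stood for a gene. The array files name build rn4, so gene coordinates are given only for printed sequences. Where a gene had several promoter windows (3251 genes), the first was used. Groups were compared with limma 3.58.1 (two-sided, Benjamini-Hochberg over 16389 genes), and the fit was tested on simulated data. The labels call the samples biological replicates.

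Genes named are the 3 largest and the smallest difference of each role group, all catalytic subunits, up to 4 called genes of each other list by lowest p (2 where none was called) and a few regulators; some genes that this rule or a count would name are not reported here. The members and lists were chosen with earlier results of these data known. Alternatives were other scalings, normexp (offset 50, on median signals, as the files hold no mean signal), the value table, other filters, outlier spots kept, the mean of probes, a replicate block and leaving out each array.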

Additional observations from a re-analysis of the deposited data

How the results depend on the processing

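The median difference of the family, 0.44, was 0.38 with quantile normalization, 0.37 with cyclic loess, 0.64 with median scaling, 0.20 with spike-in scaling and 0.42 to 0.51 with 1 array left out. The number of its members past the threshold, 25, was 33 with median scaling, 1 with spike-in scaling, 12 with no filter on dim probes and 9 to 22 with 1 array left out. All called members were higher except without PCN replicate 2, where 19 were higher and 1 lower. The number of all genes past the threshold, 3263, was 4552 with median scaling, 4581 with spike-in scaling, 2224 with normexp, 1967 with no filter and 2038 to 2571 with 1 array left out. The causes were not tested. Under spike-in scaling the median of all genes was −0.30, and under median scaling 0.14. With the replicate number as a block 12 members and 2067 genes passed, but same-numbered arrays did not deviate together (correlations of −0.10, −0.03 and −0.05), so the arrays share only a number. Lck turned from −0.67 to 0.058 with normexp. With the block the calls for Pomp, Usp14, Ubqln1, Nploc4, Faf2, Nqo1, Prdx1, Gclm, Lck, Hspb1, Hsp90aa1, Cops5 and Cct6a ended (adjusted p = 0.0514 to 0.110). With no filter on dim probes the calls for Pomp, Usp14, Ubqln1, Ufd1, Nploc4, Faf2 and Nqo1 ended. So did those for Prdx1, Gclm, Lck, Fcnb, Cops5 and Cct6a (adjusted p = 0.0530 to 0.114 over these genes). The medians of the ubiquitin, heat shock and antigen processing lists were −0.10, −0.05 and −0.23 with spike-in scaling and 0.34, 0.40 and 0.21 with median scaling. The slide could not be used as a block, since each slide holds 1 group. Under spike-in scaling Nfe2l1, Sqstm1, Ubqln4, Gsr, Tkt, Hspb1, Gclm, Cd3d and Lck kept their calls, while Pomp, Usp14, Ubqln1, Ubxn4, Ufd1, Nploc4, Faf2, Txn1, Nqo1, Prdx1, Hsp90aa1, Cops5 and Cct6a lost theirs. The number of arrays, 3 per group, limits the precision.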
